A study of Mus musculus with 8 samples.

Results

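Bone morphogenetic proteins (BMPs) form a branch of the TGF-beta family of secreted ligands. In the mouse soleus, a calf muscle rich in slow and oxidative fibres, 10 genes of this branch were followed. They were chosen by name, with no measured value in the rule, but with earlier results of these data known. They comprise the ligand genes Gdf5, Bmp4, Bmp5 and Bmp6, the receptor gene Bmpr1a, the inhibitory Smad gene Smad6, the target genes Id1, Id2 and Id3, and Bmp1, which in spite of its name encodes a protease. All 10 were found among the 22880 genes counted. RNA had been sequenced from the soleus of 4 control mice (Dnm2 +/+) and 4 Dnm2 wt/K562E mice, all of C57BL/6 background, 2 months old and, per the study's methods, male and 1 sample per mouse. The mutant mice are heterozygous for a point mutation in dynamin 2, the GTPase that cuts vesicles from membranes. The mutation was knocked into the endogenous Dnm2 gene, so it is carried by every cell type, and a LoxP site of the targeting construct remains in an intron. Controls carry neither the mutation nor this site.

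A BMP ligand brings type I and type II receptor kinases together, and the type I receptor then phosphorylates Smad1, Smad5 and Smad9, which enter the nucleus with Smad4. There they switch on a small group of direct targets, among them the Id genes and the inhibitory Smads Smad6 and Smad7, the latter closing a negative feedback loop. In skeletal muscle the branch is known for supporting fibre mass, and Gdf5 for its induction in denervated muscle.

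Because Smads act at promoters, the stretch around the RefSeq start site is shown for the direct targets Id2, Id3 and Smad6 (250 bases before to 50 bases after the start, read along the gene's strand, build GRCm38.p6). The RefSeq promoter table matched 7 of the 10 genes. Capitals mark matches to either of 2 Smad motifs searched on both strands, GGCGCC, a GC-rich element bound by Smad1 and Smad5, and GTCTAGAC, a palindrome bound by Smad3 and Smad4.
Id2 (chr12:25096043-25096342, minus strand): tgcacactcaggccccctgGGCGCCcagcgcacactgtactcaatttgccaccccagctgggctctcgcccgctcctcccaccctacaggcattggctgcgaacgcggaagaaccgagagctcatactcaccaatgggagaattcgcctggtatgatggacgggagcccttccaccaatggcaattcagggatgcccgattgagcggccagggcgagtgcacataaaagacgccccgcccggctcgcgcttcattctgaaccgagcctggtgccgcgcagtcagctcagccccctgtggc
Id3 (chr4:136143572-136143871, plus strand): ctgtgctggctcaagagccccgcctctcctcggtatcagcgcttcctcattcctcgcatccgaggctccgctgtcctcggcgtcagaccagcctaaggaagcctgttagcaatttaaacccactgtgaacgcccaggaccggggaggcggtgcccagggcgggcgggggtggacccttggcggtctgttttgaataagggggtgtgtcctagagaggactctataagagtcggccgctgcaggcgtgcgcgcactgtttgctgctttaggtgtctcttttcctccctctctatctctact
Smad6 (chr9:64022010-64022309, minus strand): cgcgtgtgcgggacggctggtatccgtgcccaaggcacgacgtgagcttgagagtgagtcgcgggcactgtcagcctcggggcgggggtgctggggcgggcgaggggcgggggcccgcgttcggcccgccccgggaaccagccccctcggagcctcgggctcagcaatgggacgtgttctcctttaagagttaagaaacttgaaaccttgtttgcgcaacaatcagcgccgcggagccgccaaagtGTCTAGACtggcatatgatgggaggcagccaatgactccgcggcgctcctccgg
Id2 held GGCGCC with its first base at -231 from the start, Smad6 held the palindrome with its first base at -4, and neither motif was in the Id3 window. Among all 32851 promoters of the same length in the table, 11.9% held GGCGCC and 0.213% held GTCTAGAC. Of the other members with a promoter, Bmpr1a had GGCGCC at -198, and Bmp4, Bmp5 and Bmp6 had neither motif. An E-box of the letters CAGCTG, of the kind bound by the E proteins that Id proteins sequester, was found only in Id2 among the 7, at -196, against 16.3% of all promoters, and the TATA box letters TATAAA were in none of the 7, against 13.6%. None of these matches overlapped another. A match describes the letters only.

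The libraries held 33407430 to 48832814 counted reads per mouse. Levels are normalized CPM, that is counts scaled to a common library size with TMM factors, which were 0.915 to 0.959 in controls and 1.04 to 1.10 in mutants. A gene was called when edgeR's quasi-likelihood test gave a Benjamini-Hochberg adjusted p under 0.05 over 14001 tested genes and the log2 fold change was at least 0.58 in size. Dnm2 itself was not called (66.3 against 73.4 normalized CPM, log2 fold change 0.15, adjusted p = 0.0909). All 7 muscle fibre markers were detected. The 5 of slow and oxidative fibres (Myh7, Myh2, Tnnt1, Tnni1 and Myl2) summed to 20357 to 22568 normalized CPM in controls and 14321 to 15795 in mutants, with Myh2 and Myl2 called lower and Tnni1 overlapping between genotypes. Of Ckm and Acta1, which all skeletal fibres express, Ckm was called lower. This is bulk muscle, so fewer cells of a type and less RNA per cell cannot be told apart.

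Of the 10 genes, 3 were called higher in Dnm2 wt/K562E soleus (Gdf5, Bmp1 and Id2) and none lower by edgeR's quasi-likelihood test. No alternative, DESeq2 and the exact test of edgeR included, called a lower one, and at an unadjusted p under 0.05 there were 5 higher and 1 lower (Bmp6). Over all tested genes 12.9% were called higher and 7.85% lower. In 4 genes (Gdf5, Bmp1, Id2 and Id3) every mutant mouse stood above every control, which held for 20.6% of all tested genes, and in none did every mutant stand below every control, against 20.5%. The median log2 fold change of the 10 was 0.26, beside 0.0074 over all tested genes, and all 10 passed the filter on low counts. Gdf5 passed it through its reads in the mutants, with 3 reads each in controls 1 and 3. With at least 10 counts required in every mouse, Gdf5 was not tested. The median of the remaining genes was then 0.17, and 2 were called higher.

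**Figure D1:**
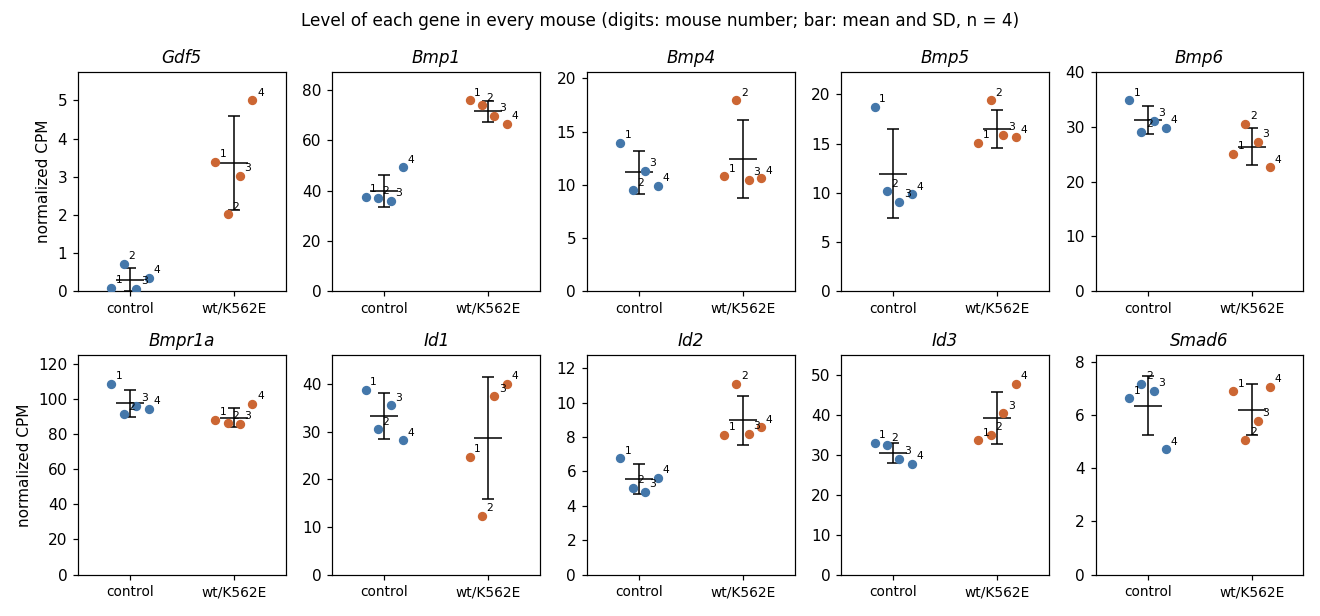
Normalized CPM of each of the 10 genes in every mouse, in a panel of its own with an axis from 0. Points are mice with their number, controls in blue and Dnm2 wt/K562E mice in orange, and bars are means with SD (n = 4). Gdf5, Bmp1, Id2 and Id3 show no overlap between genotypes, whereas Id1 spread from 12.3 to 40.1 among the mutants.

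Gdf5 (chr2:155941023-155945367, minus strand of GRCm38) encodes a BMP ligand known from joint formation and from denervated muscle. In controls 1 to 4 it was barely detected, with 3, 24, 3 and 12 reads, or 0.0894, 0.713, 0.0672 and 0.353 normalized CPM. Mutants 1 to 4 gave 125, 87, 127 and 185 reads, or 3.40, 2.02, 3.03 and 5.0 normalized CPM. All mutants lay above all controls, and control 2 was the highest of the controls. The means were 0.306 ± 0.301 and 3.36 ± 1.24 normalized CPM (SD, n = 4), an 11.2-fold rise (log2 fold change 3.49, SE 0.55, 95% interval 2.28 to 4.70, adjusted p = 0.000465, edgeR quasi-likelihood test). Without control 2 the log2 fold change was 4.33, and over the 8 comparisons that left out a mouse it ran from 3.11 upward with the call kept each time. At this depth the fold rests on a control level of a few reads, so its size is less certain than its direction. Exons of Gm15557 on the opposite strand cover 40.3% of the Gdf5 exon bases, and Gm15557 had 0 reads in all 8 mice.

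Of the genes listed for their rise in denervated muscle, 7 of 7 were also called higher, with a median log2 fold change of 2.04. In stained soleus of this age, the paper found no significant increase of fully denervated fibres and a marginal decrease of fully innervated endplates. It also found more embryonic or regenerating fibres, at low and variable levels. Which of these the RNA follows was not tested. They included Myog, a muscle regulatory factor (log2 fold change 3.10), Chrng, the fetal subunit of the acetylcholine receptor (2.64), and Chrna1, its alpha subunit (1.51). Their summed level was 66.4 to 74.2 normalized CPM in controls and 229 to 283 in mutants. The sum was 74.2, 66.6, 66.4 and 68.0 in controls 1 to 4 and 283, 229, 242 and 264 in mutants 1 to 4, so that its order of mice was not that of Gdf5 within either genotype. Tendon and connective tissue, where Gdf5 is active in development, also showed more marker RNA, with 5 of 6 tendon markers called higher and a summed level of 327 to 737 against 934 to 1292 normalized CPM. No tendon marker was at 0 in all mice. The part of either group of cells in the Gdf5 difference was not tested.

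The 5 genes whose log2 CPM followed Gdf5 most closely over the 8 mice were Nme4 (Pearson r 0.989), Scn2a (0.986), Limk2 (0.985), Yipf5 (0.984) and Supt3 (0.983). In each of them all mutants were above all controls, and only Nme4 and Scn2a passed both thresholds (log2 fold change 0.66 and 0.93). The points share their genotype groups and their libraries, so these values describe likeness of pattern only.

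Bmp4, Bmp5 and Bmp6, the more abundant ligand genes, showed no call in either direction. Bmp4 (chr14:46383520-46390669, minus strand) encodes a ligand widely used in development. Its level was 14.0, 9.50, 11.3 and 9.89 normalized CPM in controls 1 to 4 and 10.8, 17.9, 10.5 and 10.6 in mutants 1 to 4. Mutant 2 stood apart, and the other mutants fell inside the control range. The log2 fold change was 0.16 (95% interval -0.26 to 0.58, adjusted p = 0.526), and without mutant 2 it was -0.07.

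Bmp5 (chr9:75775364-75900310, plus strand) encodes a close relative of Bmp6 and Bmp7. Controls 1 to 4 had 18.7, 10.2, 9.07 and 9.86 normalized CPM and mutants 1 to 4 had 15.1, 19.4, 15.9 and 15.7. Control 1 alone overlapped the mutants, which all lay above the other controls. With all mice the log2 fold change was 0.47 (95% interval 0.01 to 0.93, adjusted p = 0.0895), and without control 1 it was 0.76 with an adjusted p of 0.000217, which passes both thresholds. Scaling by library size alone also gave a call (0.68, adjusted p = 0.0202), on a scale where the median of all genes was itself 0.22. Antisense exons of Gm26903, a gene with no count of its own here, cover 46.7% of the Bmp5 exon bases, and the strand setting of the counting is not given in the sources used here.

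Bmp6 (chr13:38345107-38500302, plus strand), best known as the ligand that sets hepcidin and so iron balance, ran the other way. Its values were 34.8, 29.2, 31.1 and 29.9 normalized CPM in controls 1 to 4 and 25.1, 30.6, 27.3 and 22.7 in mutants 1 to 4. Mutant 2 was within the control range and the other mutants were below it. The log2 fold change was -0.24 (95% interval -0.46 to -0.03, adjusted p = 0.0629). With library size alone it was -0.03 (adjusted p = 0.842, edgeR quasi-likelihood test). Without mutant 2 it was -0.32 (adjusted p = 0.0200, same test), still under the fold threshold. Exons of Bmp6 and Txndc5 overlap on opposite strands over 224 bases, 5.74% of the Bmp6 exons, and Txndc5 rose from 57.9 ± 2.34 to 99.8 ± 4.34 normalized CPM (log2 fold change 0.79). Reads of the shared bases cannot be told apart without strand. At Gdf5, the opposite-strand Gm15557 had 0 reads in every mouse beside 87 to 185 Gdf5 reads in mutants. There too, reads over more than 1 gene were assigned to all of them. Whether Txndc5 reads entered the Bmp6 level was not tested.

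The summed level of the ligands differed by less than the spread between mice. Summed per kilobase of exon, Gdf5, Bmp4, Bmp5 and Bmp6 came to 16.1 ± 2.53 normalized CPM per kb in controls and 17.9 ± 2.43 in mutants. Control 1 (19.8) and mutant 2 (21.5) were the highest of their groups for this sum, as they were for Bmp4, Bmp5 and Bmp6 taken singly. Despite its rise, Gdf5 remained the lowest of the 4 ligands per length, at 1.45 ± 0.533 normalized CPM per kb in mutants beside 4.10 ± 0.483 for Bmp5.

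**Figure D2:**
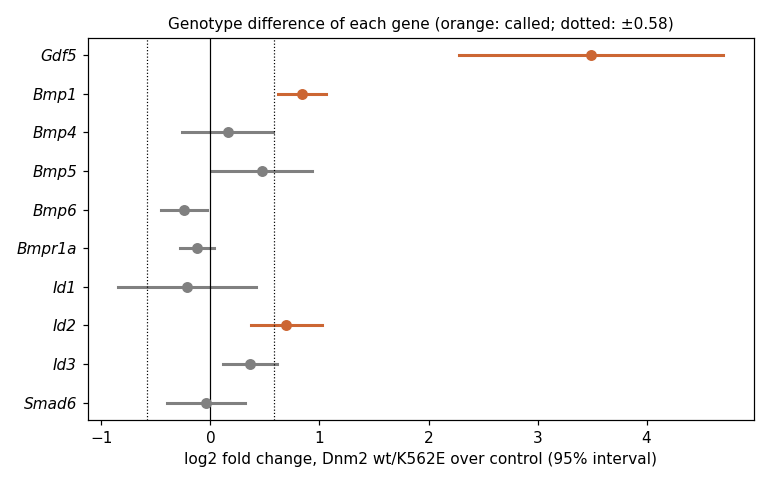
Log2 fold change of Dnm2 wt/K562E over control for each gene, with its 95% interval from the edgeR fit (n = 4 mice per genotype). Orange marks called genes and dotted lines mark the fold threshold of 0.58 in size; the intervals of Bmp4, Bmpr1a, Id1 and Smad6 include 0, and that of Gdf5 starts at 2.28.

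Bmpr1a (chr14:34410734-34503341, minus strand), the type I receptor also called ALK3, was not called. Controls 1 to 4 had 108.8, 91.4, 96.1 and 94.5 normalized CPM and mutants 1 to 4 had 88.4, 86.3, 86.0 and 97.4. The genotypes overlapped through mutant 4. The log2 fold change was -0.13 (95% interval -0.28 to 0.03, adjusted p = 0.171), and with library size alone its sign turned (0.08).

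Smad6 (chr9:63953076-64022059, minus strand), the inhibitory Smad that blocks BMP receptors and carries the palindrome shown above, gave 6.64, 7.19, 6.92 and 4.71 normalized CPM in controls 1 to 4 and 6.90, 5.07, 5.80 and 7.08 in mutants 1 to 4. The ranges lay almost on top of each other. A log2 fold change of -0.04 was obtained (95% interval -0.40 to 0.32, adjusted p = 0.866), with a sign that depended on the scaling and on which mouse was left out.

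Id proteins bind the E proteins, partners of the muscle regulatory factors, and keep them from DNA. Of the 3 Id genes, Id2 was called, and differences between them were not tested. Id2 (chr12:25093799-25097140, minus strand) was at 6.76, 5.05, 4.82 and 5.62 normalized CPM in controls 1 to 4 and at 8.12, 11.1, 8.18 and 8.57 in mutants 1 to 4. Every mutant was above every control, and mutant 2 was the highest. Means were 5.56 ± 0.869 and 8.99 ± 1.42, a 1.62-fold rise (log2 fold change 0.70, SE 0.15, 95% interval 0.37 to 1.02, adjusted p = 0.00295, edgeR quasi-likelihood test). Without mutant 2 the adjusted p was 0.00892 and the log2 fold change 0.577, just under the fold threshold, so the call was lost.

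Id3 (chr4:136143497-136145755, plus strand) had 32.98, 32.4, 29.1 and 27.7 normalized CPM in controls 1 to 4 and 33.7, 35.1, 40.5 and 47.9 in mutants 1 to 4. The groups did not overlap, although mutant 1 was close to control 1. Means of 30.6 ± 2.55 and 39.3 ± 6.43 gave a log2 fold change of 0.36 (SE 0.11, 95% interval 0.12 to 0.61), whose adjusted p of 0.0214 passed while its size missed the fold threshold. Leaving out a mouse gave adjusted p-values from 0.0134 to 0.0574.

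Id1 (chr2:152736251-152737410, plus strand), the Id gene most often used as a readout of BMP receptors, showed 38.9, 30.5, 35.5 and 28.2 normalized CPM in controls 1 to 4 and 24.8, 12.3, 37.5 and 40.1 in mutants 1 to 4. The mutants fell on both sides of the controls. Its SD of 12.8 in mutants compares with 4.81 in controls, and the log2 fold change was -0.22 (95% interval -0.85 to 0.42, adjusted p = 0.572). Without mutant 2 it was 0.04. The Id1 interval with all mice lies below the value fitted for Id2 (0.70) but overlaps the Id2 interval of 0.37 to 1.02.

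Per kilobase of exon, Id1 and Id3 made up nearly all Id RNA. The sum of the 3 genes was 48.0 ± 5.24 normalized CPM per kb in controls and 50.3 ± 13.7 in mutants, with mutants 1 to 4 at 43.5, 34.8, 58.2 and 64.8. Id1 held 59.6 ± 2.89% of this sum in controls and 47.1 ± 11.3% in mutants. Id3 held 35.7 ± 2.71% and 44.9 ± 7.82%, and its share in every mutant but mutant 3 (38.8%) was above the highest control (39.0%). Id2 held 4.76 ± 0.637% and 7.99 ± 3.55%, with 13.1% in mutant 2. Mutant 2 thus differed from the other mutants in the make-up of its Id RNA, with the lowest Id1 and the highest Id2.

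**Figure D3:**
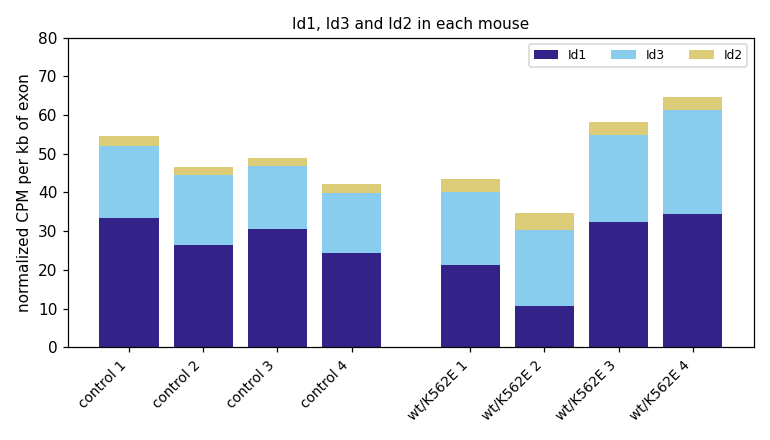
Stacked normalized CPM per kb of exon of Id1, Id3 and Id2 in each of the 8 mice, on an axis from 0. The sum spans 42.1 to 54.7 in controls and 34.8 to 64.8 in mutants, and the Id1 part of mutant 2 is the smallest of all.

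Id1 and Id3 are well expressed in blood vessel endothelium as well as in muscle, and endothelial markers differed between genotypes. Of 6 markers 2 were called lower (Kdr and Flt1), all 6 were below the controls in every mutant, none was at 0, and their sum was 1139 to 1243 normalized CPM in controls and 793 to 907 in mutants. Of 5 mural cell markers, Acta2 and Myh11 were called lower, Rgs5 was at -0.35 on the log2 scale, and Pdgfrb (0.16) and Cspg4 (0.56, adjusted p = 0.0141) had the other sign without a call. Their sum, mostly Rgs5, was 1511 to 1671 against 1112 to 1318. Among 5 satellite cell markers, Pax7, Myf5 and Calcr were called lower, Chodl higher and Cdh15 not. Chodl carried the sum of 58.1 to 84.6 against 152 to 181, which without it was 29.4 to 37.1 against 23.7 to 26.7. The part of these cells in the Id values was not tested. The E proteins themselves were not called (0 of 3). On the log2 scale the differences were 0.33 for Tcf4 (adjusted p = 0.00647), 0.16 for Tcf12 (adjusted p = 0.0459) and 0.31 for Tcf3 (adjusted p = 0.0631), each under the fold threshold.

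Bmp1 (chr14:70474558-70520234, minus strand) is not a ligand. It encodes the metalloprotease that trims procollagens, activates lysyl oxidase and cuts the BMP antagonist chordin. Controls 1 to 4 stood at 37.6, 37.0, 36.01 and 49.3 normalized CPM and mutants 1 to 4 at 75.9, 74.0, 69.9 and 66.6. The groups were well apart, with control 4 above the other controls. Bmp1 rose 1.79-fold, from 39.97 ± 6.26 to 71.6 ± 4.16 (log2 fold change 0.84, SE 0.10, 95% interval 0.62 to 1.06, adjusted p = 7.55e-05, edgeR quasi-likelihood test), and the call held in each alternative tried.

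Of 9 genes around this protease, its relatives, enhancers and substrates, 7 were called higher and none lower, with a median log2 fold change of 1.00. Pcolce, the enhancer of procollagen C-proteinase, rose from 83.3 ± 14.2 to 170 ± 25.5 normalized CPM, and Lox, the collagen cross-linking enzyme that it activates, from 23.5 ± 5.26 to 56.2 ± 11.3. Col1a1, the main fibrillar collagen chain, rose from 566 ± 145 to 1131 ± 185, and Bgn, a matrix proteoglycan, by a log2 fold change of 1.44. Pcolce2, Col1a2 and Col3a1 rose as well. The 2 tolloid-like paralogs were not called (Tll1 0.63, adjusted p = 0.0665; Tll2 -0.75, adjusted p = 0.0746).

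The summed level of these 9 genes was 2521, 1958, 2190 and 3080 normalized CPM in controls 1 to 4 and 6251, 5220, 4848 and 4671 in mutants 1 to 4. Control 4 was the highest control for the sum and for Bmp1, the mutants had the same order in both, and controls 2 and 3 had not. Control 4 also had the highest macrophage sum of the controls, 125 against 68.1 to 71.2. Markers of matrix-producing fibro-adipogenic progenitors were called higher in 4 of 5, with sums of 358 to 449 in controls and 500 to 623 in mutants. The remaining marker, Ly6a, had the other sign without a call (log2 fold change -0.19, adjusted p = 0.033). Macrophage markers were called higher in 6 of 6, with sums of 68.1 to 125 and 146 to 246. No marker of either list was at 0 in all mice. What share of the Bmp1 difference these cells carry was not tested.

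Per length, the 10 genes spanned a wide range in control muscle. Id1 was highest at 28.7 ± 4.15 normalized CPM per kb, followed by Id3 (17.1 ± 1.43), Bmpr1a (15.4 ± 1.20), Bmp6 (8.01 ± 0.646), Bmp4 (4.97 ± 0.900), Bmp1 (4.51 ± 0.706), Bmp5 (2.97 ± 1.13), Id2 (2.28 ± 0.357), Smad6 (1.99 ± 0.351) and Gdf5 (0.132 ± 0.130). The mice of neighbours in this order overlapped in 5 of 9 pairs, namely Id3 with Bmpr1a and each neighbouring pair from Bmp4 down to Smad6. In mutants Bmp1 (8.07 ± 0.469) stood above Bmp6 (6.77 ± 0.862) and Bmp4 (5.54 ± 1.62), and Gdf5 (1.45 ± 0.533) overlapped with Smad6 (1.94 ± 0.297). There, 6 of 9 neighbouring pairs overlapped.

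**Figure D4:**
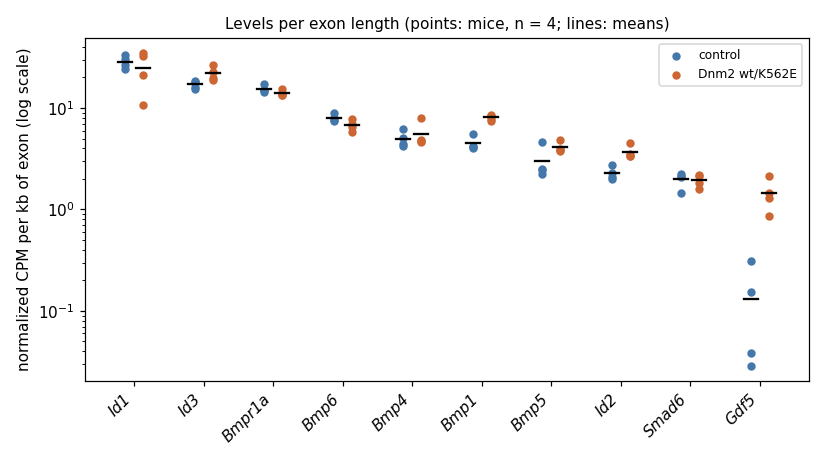
Normalized CPM per kb of exon on a log axis, genes ordered by their control mean. Points are mice (4 controls in blue, 4 Dnm2 wt/K562E mice in orange) and lines are means; Gdf5 moved from 0.132 to 1.45, close to Smad6 at 1.94.

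To place the 10 genes in their pathway, 54 further genes of it were read by role. Of these, 42 could be tested, 6 were called higher and 3 lower, and the median log2 fold change was 0.12. Over all tested genes 12.9% were called higher and 7.85% lower. Scaling by library size alone changed the sign of 7 of the 42, none of them called, and gave 11 higher and 1 lower.

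No ligand among Bmp2, Bmp3 and Bmp7 was called, and the other 6 ligands were too low to test. Bmp10 and Gdf2, circulating ligands made elsewhere, had no reads in any mouse. Of 11 receptors and co-receptors, Bmpr1b and Hjv were called lower. Bmpr1b, the type I receptor that binds Gdf5 best, had 10.5, 13.8, 13.2 and 11.5 normalized CPM in controls 1 to 4 and 8.12, 7.65, 7.97 and 8.11 in mutants 1 to 4. It thus fell without overlap while Gdf5 was higher, with a log2 fold change of -0.62 (95% interval -0.85 to -0.39, adjusted p = 0.000726), although the call was lost without control 2 and with library size alone. Hjv, hemojuvelin, the muscle co-receptor that binds Bmp6, fell from 463 ± 32.6 to 296 ± 12.2 (log2 fold change -0.65, adjusted p = 2.48e-05), a call lost with library size alone. The receptors Acvrl1 (-0.46, adjusted p = 0.0125) and Eng (-0.50, adjusted p = 0.00369), both typical of endothelium, and Bmpr2, the type II receptor (0.18, adjusted p = 0.0208), passed on p but not on size. So did Rgmb of the same list (0.27, adjusted p = 0.0191, quasi-likelihood test).

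Among 9 Smads and regulators only Ski, a nuclear repressor of Smad4 complexes, was called (89.5 ± 9.69 against 137 ± 17.8 normalized CPM, log2 fold change 0.61, adjusted p = 0.000752), and without control 1 or without mutant 1 it was not. Of the receptor-driven Smads, Smad1 was at 0.37 (adjusted p = 0.0138) and Smad5 at -0.18 (adjusted p = 0.0321), both under the fold threshold, and the sign of Smad5 turned with library size alone. Tob1, among the regulators, was at -0.56 (adjusted p = 0.00493, quasi-likelihood test), also under that threshold. It was called lower without control 1 (-0.65) and without mutant 2 (-0.68). Smad9 was low (0.442 ± 0.171 and 0.718 ± 0.126 normalized CPM) and not called (0.71, adjusted p = 0.108), though it was called higher with library size alone (0.92) and without control 2 (0.99). Smad7, the other inhibitory Smad, had the same mean in both genotypes (9.78 ± 1.08 and 9.80 ± 2.52), with a 95% interval of -0.37 to 0.37 for its log2 fold change.

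Of 16 extracellular antagonists and modulators 13 could be tested, 3 were called higher and 1 lower. Fst, follistatin, which binds activins and some BMPs, rose from 6.58 ± 1.17 to 12.9 ± 2.32 normalized CPM (log2 fold change 0.97, adjusted p = 0.000579). Fstl1, a follistatin-like matrix protein, rose from 184 ± 24.4 to 385 ± 43.7 (1.06, adjusted p = 2.21e-05). Nbl1, a DAN-family antagonist that binds BMP ligands, rose from 51.2 ± 5.17 to 86.3 ± 5.28 (0.75, adjusted p = 3.95e-05). These 3 were called in each of 17 alternatives.

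Chrdl2, chordin-like 2, went the other way. Controls 1 to 4 had 3.66, 5.97, 5.78 and 4.80 normalized CPM and mutants 1 to 4 had 0.625, 1.14, 0.739 and 0.595, so that the groups were far apart. Its log2 fold change was -2.69 (95% interval -3.25 to -2.14, adjusted p = 1.40e-05). Chordin itself, Chrd, a substrate of the Bmp1 protease, was not called (0.42, adjusted p = 0.0637) except without control 1 (0.59) and with library size alone (0.63), nor was noggin, Nog (0.36, adjusted p = 0.205). Bambi had every mutant above every control and passed on p but not on size (0.57, adjusted p = 0.0146, quasi-likelihood test). It was called higher without control 1 (0.63), without mutant 1 (0.65) and with library size alone (0.78).

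Of 6 further target genes tested, 2 were called higher. Msx1, a homeobox repressor of differentiation, rose from 6.93 ± 0.513 to 13.3 ± 0.163 normalized CPM (log2 fold change 0.94, adjusted p = 1.39e-05), and Runx2, the bone transcription factor, from 1.30 ± 0.58 to 3.49 ± 0.474 (1.42, adjusted p = 0.00361). Id4, the remaining Id gene, was low, at 1.70 ± 0.540 and 2.65 ± 0.480, and was not called by the quasi-likelihood test (0.64, adjusted p = 0.0583). It was called higher by DESeq2 (0.64, adjusted p = 0.0357), by the exact test of edgeR (0.64, adjusted p = 0.0365), with library size alone (0.84), without control 4 (0.86) and without mutant 2 (0.76). Hey1, a Notch and BMP target of endothelium, was at -0.54 on the log2 scale (adjusted p = 0.0081), under the fold threshold, and was called lower without control 1, mutant 2 or mutant 4. Fbxo30, the ubiquitin ligase known from BMP-inhibited muscle, was not called (0.21, adjusted p = 0.0587), and neither was Atoh8 (-0.08, adjusted p = 0.798).

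**Figure D5:**
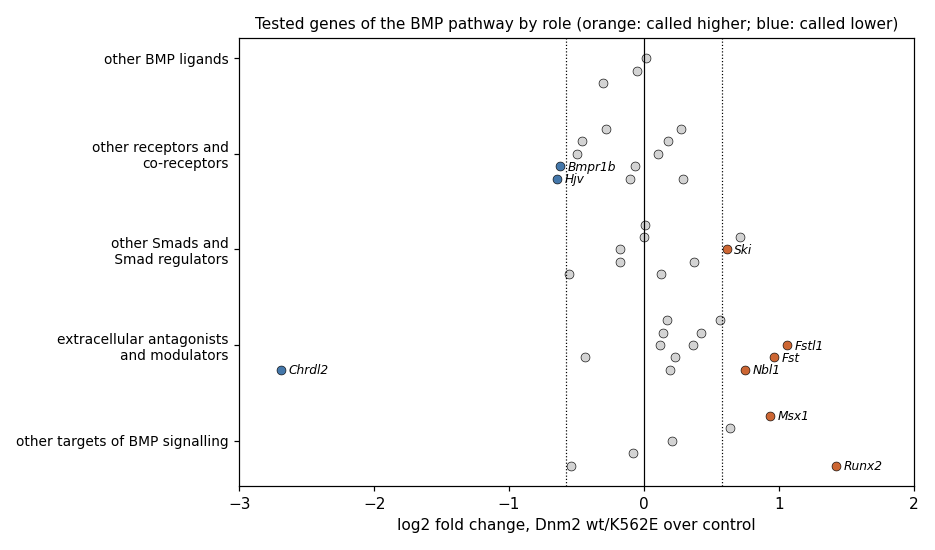
Log2 fold change of Dnm2 wt/K562E over control for the 42 tested pathway genes, in a row for each role, with vertical offsets only to separate points. Orange points were called higher (6), blue points lower (3), and dotted lines mark 0.58 in size; Chrdl2 lies far from the rest at -2.69.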

How the data were processed

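RNA of 8 soleus muscles was sequenced as paired ends. Per the labels and the study's methods, the authors trimmed reads with Trimmomatic 0.33, aligned them with STAR 2.5.1b to GRCm38.p5 with Ensembl gene models, and deposited raw counts per gene and mouse from featureCounts. Reads over more than 1 gene were assigned to all of them, and those with several alignments to the primary site. The strand setting is not given in the sources used here, and the labels name a stranded total RNA kit where the methods name a poly A kit.

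The 10 genes and all lists were chosen with earlier results of these data known. Gene IDs were matched to GENCODE M21 (22647 of 22880). The filter filterByExpr (minimum count 10, minimum total 15) kept 14001 genes, which were fitted by genotype in edgeR 4.0.16 (R 4.3.3) with TMM factors and the quasi-likelihood test, adjusted by Benjamini-Hochberg over all of them, with calls as defined in the results (thresholds 0.05 and 0.58). Standard errors and 95% intervals follow from the F statistic. CPM per kb divides by the length of merged exons. Log2 CPM for the likeness to Gdf5 used a prior count of 2. The fit was tested on simulated data. Named genes were the 10, the genes of the lists where reported, and the 5 most like Gdf5; Gm15557, Gm26903, Txndc5 and Dnm2 are named as overlapping or targeted genes, and single markers after their values were seen. The alternatives comprised DESeq2 1.42.0, the exact test of edgeR, other scaling, other filters, no fold threshold, either mouse number as a block, and leaving out each mouse. Mice are numbered as in the sample titles.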

Additional observations from a re-analysis of the deposited data

Results flagged for a closer look

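Among the 20 groups of 4 mice (10 genes in 2 genotypes), 4 held a mouse far from the other 3 of its genotype, where chance gives about 1 in 20. Bmp1 was 49.3 normalized CPM in control 4 and 36.01 to 37.6 in the other controls. Bmp4 was 17.9 in mutant 2 and 10.5 to 10.8 in the other mutants. Bmp5 was 18.7 in control 1 and 9.07 to 10.2 in the other controls. Id2 was 11.1 in mutant 2 and 8.12 to 8.57 in the other mutants. The source of these values was not tested.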

How the results depend on the processing

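Over 17 alternatives, 158 of the 169 values of the single genes kept direction and side of the thresholds, 7 reversed, 3 passed the thresholds anew and 1 no longer did. The alternative without a fold threshold reused the main fit, so no direction could change there. Id3 passed anew in it only because that threshold was gone. Gdf5 and Bmp1 stayed called wherever they were tested; Gdf5 could not be tested with at least 10 counts in every mouse. Reversals concerned genes that were not called. With library size alone Bmpr1a gave 0.0839 and Smad6 0.175 (log2 fold change), and the median of all genes moved from 0.0074 to 0.219. Leaving out a mouse gave -0.0718 to 0.275 for Bmp4, -0.421 to 0.0359 for Id1 and -0.166 to 0.048 for Smad6. For Smad6 the reversals came without control 2 (0.0191), without control 3 (0.0023) and without mutant 2 (0.048). The cause was not tested.

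Of the other pathway genes, 11 were called higher and 1 lower with library size alone, and 10 and 8 without a fold threshold, against 6 and 3. Leaving out a mouse gave 2 to 7 lower genes, with 7 without control 1, which added Acvrl1, Eng, Hey1 and Tob1, and 5 without mutant 2, which added Hey1 and Tob1. With either mouse number as a replicate block, 3 of the 10 genes were called higher and none lower, Gdf5 had a log2 fold change of 3.62 and 3.65, Bmp1 0.85 with each block and Id2 0.69 with each, and the adjusted p of Id3 was 0.0698 (titles) and 0.0384 (descriptions). With the description number as a block, 2 uncalled genes passed on adjusted p but not on size in the quasi-likelihood test. They were Bmp5 (0.52, adjusted p = 0.0131) and Bmp6 (-0.25, adjusted p = 0.0325). Deviations of same-numbered mice correlated at -0.114 on average by titles and -0.03 by descriptions, and 0 and 1 of 4 mice correlated best with their own number. With 4 mice per genotype, these correlations cannot decide whether the numbers pair the mice. Depth limits Gdf5 most, with 3 reads in each of 2 controls.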
